A study of Homo sapiens with 12 samples.

Results

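The comparison described here is between 2 kinds of culture serum in cells that had all received the same taxane. Of 12 microarrays in the series, 4 were chosen by their labels: 2 arrays of LNCaP cells kept in full serum and 2 of LNCaP cells kept in charcoal dextran treated serum, all exposed to 1 nM cabazitaxel for 16 h. LNCaP is an established human prostate cancer line that grows in response to androgens, and every culture of the series, controls included, carried the empty control vector MSCV-LMP. The other 8 arrays hold the same serum pair without taxane (ethanol vehicle, 2 arrays in each serum) and with 1 nM docetaxel (2 arrays in each serum), and are used here to read the cabazitaxel cultures against. RNA was amplified and hybridised to the Affymetrix Human Gene 2.0 ST array, and the deposited values are RMA-normalized intensities. The labels number duplicates within each group and do not say whether they were separate cultures, so the p-values cover no more than the variation from array to array, which may be technical. All cells were of 1 line in culture.

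Charcoal and dextran remove steroids and other small lipophilic molecules from serum, so cells in treated serum receive little androgen while most proteins stay. In full serum, androgens, like other steroids, act through nuclear receptors that bind DNA at pairs of short half-sites, and turn on genes of the secretory prostate epithelium while other genes fall. Cabazitaxel and docetaxel bind tubulin and stabilise microtubules, which blocks mitosis; microtubules also serve as tracks for transport in the cytoplasm. The question the comparison addresses is which transcripts separate cultures in full serum from those in charcoal-treated serum while cabazitaxel is present. Not every gene is named in the annotation used here, and tubulin genes were not analysed here.

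The promoters of 3 genes that rose in full serum under cabazitaxel are shown first, because they hold the letters of a steroid receptor half-site and because KLK2 and KLK3 are neighbouring, similar genes that moved together. Each line is the 250 bases before the transcription start from RefSeq (GRCh38.p14), read 5′ to 3′ on the gene's own strand. KLK3 lies at chr19:50854665-50854914 on the plus strand, KLK2 at chr19:50873189-50873438 on the plus strand and STK39 at chr2:168247596-168247845 on the minus strand. Capitals mark the half-site AGAACA in KLK3 and STK39, and GGAACA in KLK2, a variant that was chosen after the sequences had been seen.
KLK3: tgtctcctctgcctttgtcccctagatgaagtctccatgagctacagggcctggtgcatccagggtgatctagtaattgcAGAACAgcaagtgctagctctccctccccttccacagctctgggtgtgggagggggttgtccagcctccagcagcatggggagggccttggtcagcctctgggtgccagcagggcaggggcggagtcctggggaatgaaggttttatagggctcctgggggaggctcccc
KLK2: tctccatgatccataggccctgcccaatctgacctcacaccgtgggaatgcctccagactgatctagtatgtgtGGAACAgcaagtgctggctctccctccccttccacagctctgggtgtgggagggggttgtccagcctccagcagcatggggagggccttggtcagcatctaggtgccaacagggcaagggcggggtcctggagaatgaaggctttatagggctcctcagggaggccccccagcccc
STK39: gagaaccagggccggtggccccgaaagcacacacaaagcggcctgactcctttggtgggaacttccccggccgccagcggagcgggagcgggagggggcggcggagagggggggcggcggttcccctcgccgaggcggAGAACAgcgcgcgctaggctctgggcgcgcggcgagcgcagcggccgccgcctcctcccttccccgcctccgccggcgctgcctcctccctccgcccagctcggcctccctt
The capitals begin 170 bases before the start in KLK3, 176 in KLK2 and 112 in STK39, and in both kallikreins the next 9 bases are the same, gcaagtgct. Searched on both strands, AGAACA was present in 12.4% of all 35116 promoters in the table. Of the 44 genes called in this comparison, 35 had a promoter in the table, and 6 of them (17.1%) held AGAACA, namely KLK3, STK39, TAOK3, TEX2, ELF1 and USP54, against 10.7% of all tested genes with a promoter. GGAACA was present in 11.6% of promoters and in 7 of the 35 genes (20%), against 12.8% of tested genes. These are letter matches in a short window and were not tested.

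Across the 12 arrays the median intensity lay between 22.19 and 22.43. Duplicates correlated at r of 0.9863 to 0.9922 over the 11105 genes tested, with 0.9867 for the charcoal-serum and 0.9913 for the full-serum cabazitaxel pair. The luminal prostate identity on the label was borne by the data: 10 of 12 named luminal markers, among them KLK3, KLK4, KRT8, KRT18, HOXB13, FOLH1 and FOXA1, were above the 75th percentile of intensity (33.7) on all 12 arrays. Of the other markers, 0 of 6 basal, 0 of 9 neuroendocrine, 1 of 12 fibroblast (FN1) and 1 of 9 immune markers (CD68) reached it on all arrays. The summed intensity of the 12 fibroblast and mesenchymal markers was 874 to 925 in the full-serum and 685 to 734 in the charcoal-serum cabazitaxel arrays, where FN1 gave a log2 difference of 0.47 (adjusted p = 0.45 by limma) and SNAI2 is a member; its part in the results was not tested. The 6 basal markers summed to 149 to 154 in full serum and 142 to 144 in charcoal serum, the 9 neuroendocrine markers to 208 to 212 and 203 to 218, and the 9 immune markers to 228 to 235 and 229 to 234.

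Under cabazitaxel, TARP, the kallikreins KLK2 and KLK3 and other androgen-induced genes rose in full serum, and CCL2, TLL1, SESN1 and SESN3 were among those that fell. Of 11105 genes tested, 44 (0.396%) passed an adjusted p under 0.05 in limma, a linear model whose spread was estimated over all 6 groups and whose p-values were adjusted by Benjamini-Hochberg over all genes. Of these, 29 (0.261%) rose in full serum and 15 (0.135%) fell. The arrays of the 2 sera did not overlap in 3876 genes (34.9%), near the share of 0.333 that 2 arrays against 2 give by chance. An unadjusted p under 0.05 by limma was found for 785 genes (7.07%), where 555 would be expected by chance. The count rests on both duplicates: it was 16 without charcoal-serum replicate 1, 17 without charcoal-serum replicate 2, 19 without full-serum replicate 1 and 9 without full-serum replicate 2. Called whichever array was left out were 9 genes, TARP, HERC3, ZBTB10, STK39, SNAI2, RASSF3, CENPN, HOMER2 and CCL2, and 0 of the 44 changed direction under any alternative tried. In RNA from a whole culture, a change in the share of cells that express a gene and a change in the RNA per cell cannot be told apart.

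TARP, which prostate epithelium transcribes from within the locus of the T-cell receptor gamma chain, separated the sera furthest among named genes. Its log2 intensity was 5.09 and 5.02 in charcoal serum and 6.98 and 7.0 in full serum. The duplicates differed by far less than the sera, and the rise was 1.94 on the log2 scale (SE 0.101, 95% interval 1.71 to 2.16), or 3.83-fold, with an adjusted p of 8.61e-06 by limma. KLK2, which encodes the secreted protease kallikrein 2, stood at 6.87 and 6.52 in charcoal serum and at 8.05 and 8.16 in full serum. Its rise was 1.41 (SE 0.159, 2.65-fold, adjusted p = 0.0029 by limma), and without full-serum replicate 2 it missed the threshold (adjusted p = 0.0678). KLK3, the gene of prostate-specific antigen, read 9.52 and 8.90 in charcoal serum and 10.12 and 10.24 in full serum. Its charcoal duplicates lay further apart than those of TARP, and the rise of 0.96 (SE 0.176, 1.95-fold) had an adjusted p of 0.0475 by limma. Left out in turn, charcoal-serum replicate 1 gave KLK3 an adjusted p of 0.00761, charcoal-serum replicate 2 gave 0.219, full-serum replicate 1 gave 0.258 and full-serum replicate 2 gave 0.436. KLK4, another kallikrein of the prostate, read 8.09 and 7.93 in charcoal serum and 8.31 and 8.46 in full serum, a difference of 0.37 that did not pass (adjusted p = 0.25). KLK2 and KLK3 share much of their sequence, and probes can respond to both.

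**Figure D1:**
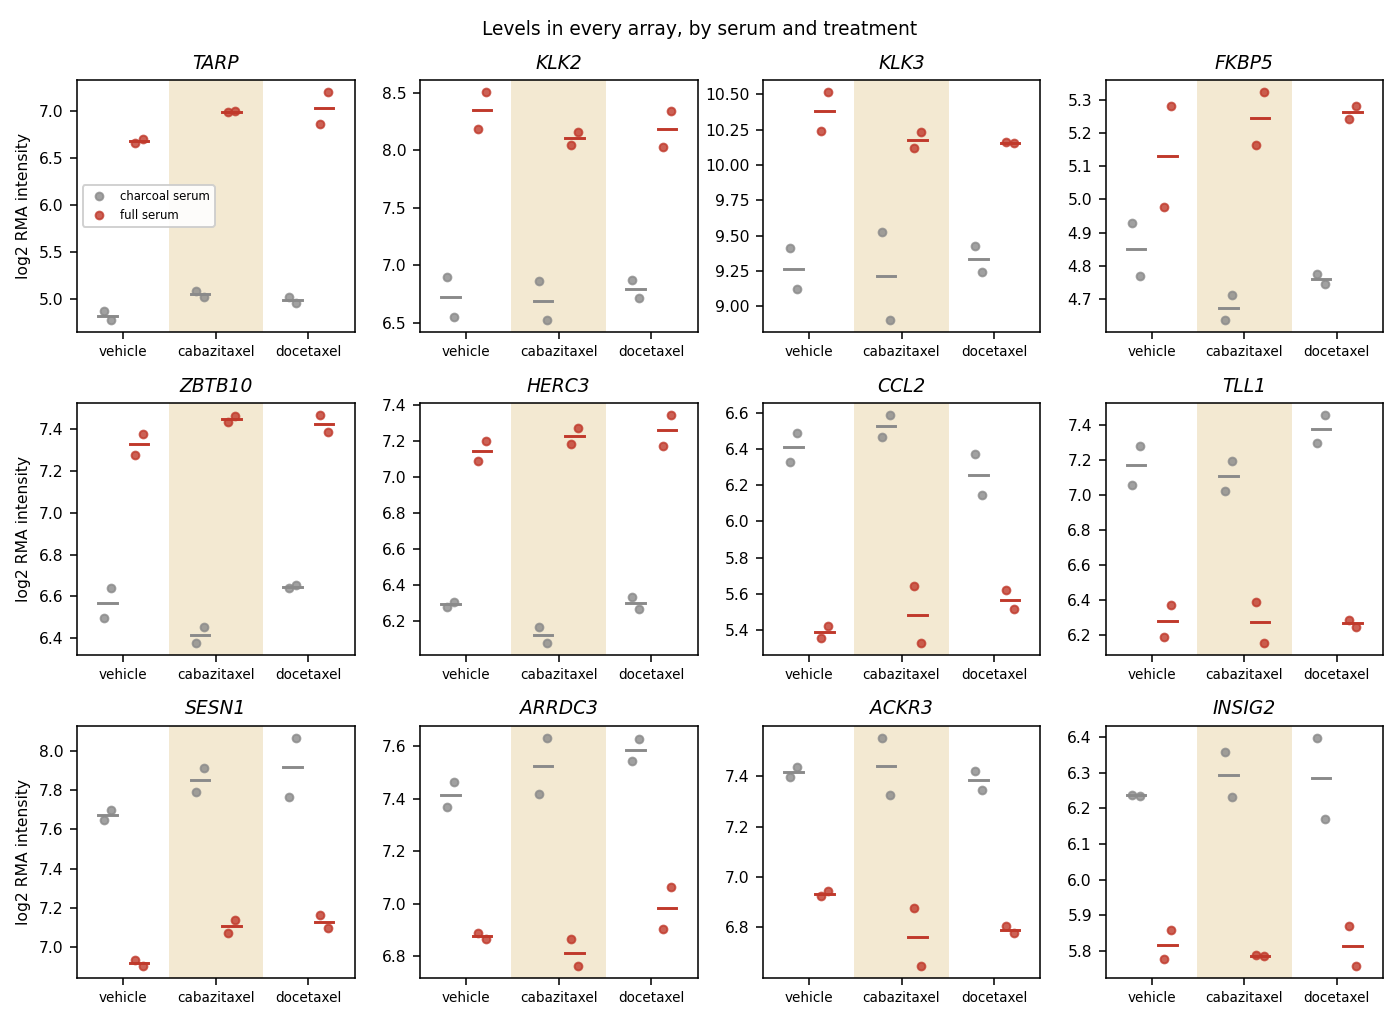
Log2 RMA intensity (vertical axes, scaled per gene) of 12 genes in every array, by treatment (horizontal axes); grey points are charcoal-serum arrays, red points full-serum arrays, short lines the means of 2 arrays, and the cabazitaxel groups are shaded. In the shaded columns TARP stands at 5.02 to 5.09 in charcoal serum and 6.98 to 7.0 in full serum, and CCL2 at 6.47 to 6.59 and 5.33 to 5.64.

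Other rises that passed were the following. ZBTB10, a zinc-finger repressor, read 6.38 and 6.45 in charcoal serum and 7.43 and 7.46 in full serum, a rise of 1.03 (SE 0.0766, adjusted p = 0.000129 by limma). HERC3, a HECT-type ubiquitin ligase, went from 6.17 and 6.07 to 7.18 and 7.27, a rise of 1.11 (SE 0.0828). STK39, the kinase SPAK that controls cation-chloride cotransporters, was at 8.34 in both charcoal arrays and at 9.25 and 9.43 in full serum, a rise of 1.00. The rule for naming rises required that the sera not overlap. In each of these 3 genes they lay apart by several times the gap between duplicates. SNAI2, the transcription factor Slug, rose by 0.98 from 5.03 and 4.85 to 5.91 and 5.92. CENPN, which binds centromeric nucleosomes, rose by 0.92 from 7.65 and 7.63 to 8.56 and 8.55. The Ras-association protein gene RASSF3 rose by 0.95, the paracaspase MALT1 by 0.89 and the orphan receptor GPR158 by 0.82. ENDOD1 rose by 0.79, the lipase ABHD2 by 0.75 and the scaffold HOMER2 by 0.73.

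FKBP5, the gene of an Hsp90 co-chaperone widely used as a readout of steroid receptor activity, was dim. It read 4.64 and 4.71 in charcoal serum and 5.16 and 5.32 in full serum, a rise of 0.57 (SE 0.104, adjusted p = 0.0475 by limma) that missed the threshold without any 1 of the 4 arrays (adjusted p 0.171 to 0.469). Of all deposited intensities 57.5% were below 24 and the lowest was 17.32, so a floor may compress the differences of dim genes. With 16 subtracted from every intensity before the logarithm, the FKBP5 difference was 1.20, that of ELOVL7 1.52 in place of 0.74, that of SNAI2 1.60 and that of TARP 2.69. The true size of the floor is not given in the sources used here, and 16 was a chosen value. The log2 differences in this report are of the deposited values and may understate changes of dim genes to an unknown degree. With that offset 10 genes were called in place of 44. TARP and SNAI2 were among them, while FKBP5 (adjusted p = 0.0821 by limma) and ELOVL7 (adjusted p = 0.0545 by limma) were not.

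Of transcription factors known from epithelial cells, EHF, an ETS factor, rose by 0.57 (SE 0.0841) and GRHL2, a grainyhead factor, by 0.41 (SE 0.0724), while SPDEF gave 0.59 (adjusted p = 0.23), FOXA1 0.03 and HOXB13 -0.08, none of the 3 past the threshold. GRHL2 was the single called member among 14 tested genes of steroid receptor partners and coregulators, of which 8 were higher and 6 lower. The 2 fatty acid elongases ELOVL5 and ELOVL7 rose by 0.58 and 0.74. UAP1, which makes the sugar donor UDP-GlcNAc, read 8.58 and 8.60 in charcoal serum and 9.04 and 9.16 in full serum, a rise of 0.51. AADAT, an aminotransferase of lysine and tryptophan breakdown, rose by 0.53. The remaining called rises were C1orf116 (0.67), CNKSR2 (0.66), TAOK3 (0.57), DDIAS (0.55), DEPDC1 (0.52), TEX2 (0.51), USP43 (0.44) and FOXD4 (0.75). FOXD4 belongs to a family of near-identical copies, so its signal may come from more than 1 of them.

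Of the 15 genes that fell in full serum, CCL2 fell furthest. CCL2, a chemokine that attracts monocytes, read 6.47 and 6.59 in charcoal serum and 5.64 and 5.33 in full serum. It fell by 1.04 on the log2 scale (SE 0.115, 2.06-fold lower, adjusted p = 0.00264 by limma). ACKR3, the scavenging receptor for the chemokine CXCL12, went from 7.55 and 7.33 to 6.88 and 6.65 and fell by 0.68 (SE 0.095). TLL1, a tolloid-like metalloprotease that processes matrix proteins, went from 7.03 and 7.20 to 6.39 and 6.15 and fell by 0.84 (SE 0.114), and the membrane-bound metalloprotease MMP16 fell by 0.56. TLL1 missed the threshold without charcoal-serum replicate 2 (adjusted p = 0.107) and without full-serum replicate 2 (adjusted p = 0.125).

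The sestrins SESN1 and SESN3 both fell. SESN1, a sestrin that restrains mTORC1 when amino acids or growth signals are low, read 7.79 and 7.91 in charcoal serum and 7.07 and 7.14 in full serum, and fell by 0.75 (SE 0.0959, adjusted p = 0.00728 by limma). Its relative SESN3 fell by 0.62 (SE 0.112) from 7.14 and 7.08 to 6.36 and 6.62. TP53INP1, a p53-induced cofactor, fell by 0.59 from 8.91 and 9.13 to 8.43 and 8.44. In all 3 genes both charcoal-serum arrays stood above both full-serum arrays, which the rule for naming falls required. ARRDC3, an arrestin-domain protein that directs membrane receptors to degradation, fell by 0.71 from 7.42 and 7.63 to 6.87 and 6.76. INSIG2, a protein of the endoplasmic reticulum that holds back sterol-regulated transcription, fell by 0.51 from 6.36 and 6.23 to 5.79 and 5.78. CDK8, the kinase of the Mediator complex, fell by 0.49. The remaining called falls were the synaptic organiser CBLN2 (-0.59), the actin-binding LASP1 (-0.52), the ETS factor ELF1 (-0.51), NIPAL3 (-0.50) and USP54 (-0.48). Just outside the threshold stood SLFN5 at -0.48 and just inside it KLK3, ABHD2, FKBP5 and SESN3, with adjusted p-values of 0.0501 and 0.0475.

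**Figure D2:**
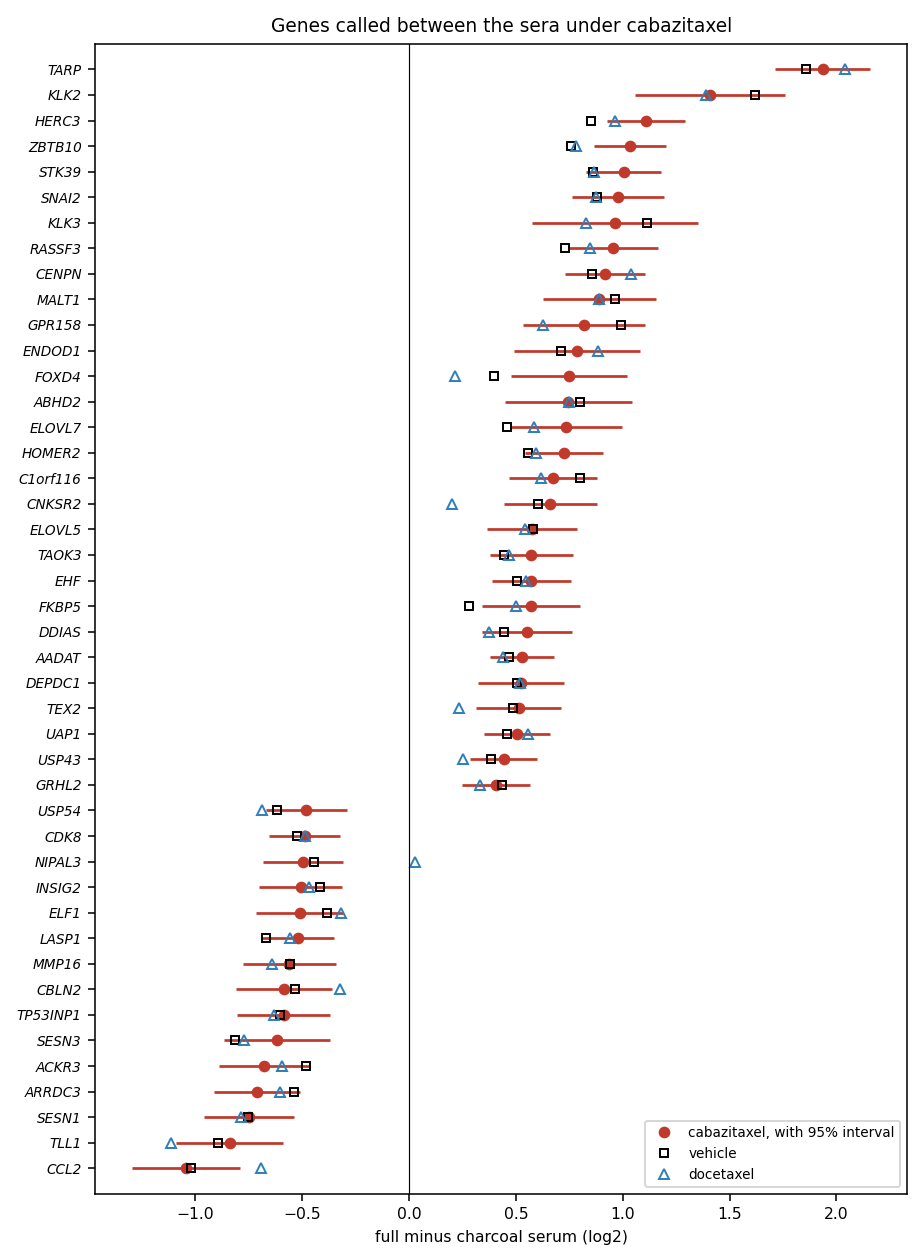
Full minus charcoal serum difference in log2 intensity (horizontal axis) of the 44 genes called under cabazitaxel, ordered by size (vertical axis); red circles with lines are the cabazitaxel values with 95% intervals, squares the vehicle and triangles the docetaxel values, each from 2 arrays against 2. The vehicle values lie on the same side of 0 as the cabazitaxel values for all 44 genes, and the docetaxel values for 43, the exception being NIPAL3 at 0.03.

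Gene lists were read by counts and medians, beside the background of all tested genes. Of these, 49.3% were higher in full serum and the median difference was 0.00 (-0.0017). Without overlap 17.3% were higher and 17.6% lower, and 0.261% were called higher and 0.135% called lower. Of 37 tested androgen-induced genes, 36 had a positive difference, 32 of them without overlap, and 17 were called; the exception in direction was KLK15 at -0.13. Their median difference was 0.51 under cabazitaxel, 0.46 under vehicle and 0.48 under docetaxel. Of these genes, 15 were listed with their serum difference in the vehicle arrays already known. Without those, 21 of 22 were higher, 3 were called (ELOVL7, C1orf116 and UAP1) and the median was 0.33. Of 18 androgen-repressed genes, 14 were lower, 11 of them without overlap, and 4 were called, TLL1, SESN1, SESN3 and TP53INP1; the median was -0.26. These 4 too had been listed with their vehicle result known, and without the 5 such genes 9 of 13 were lower, 0 were called and the median was -0.06. Against the list's name, DPP4, a cell-surface peptidase, read 5.45 and 5.65 in charcoal serum and 6.05 and 6.02 in full serum (0.48, adjusted p = 0.081).

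**Figure D3:**
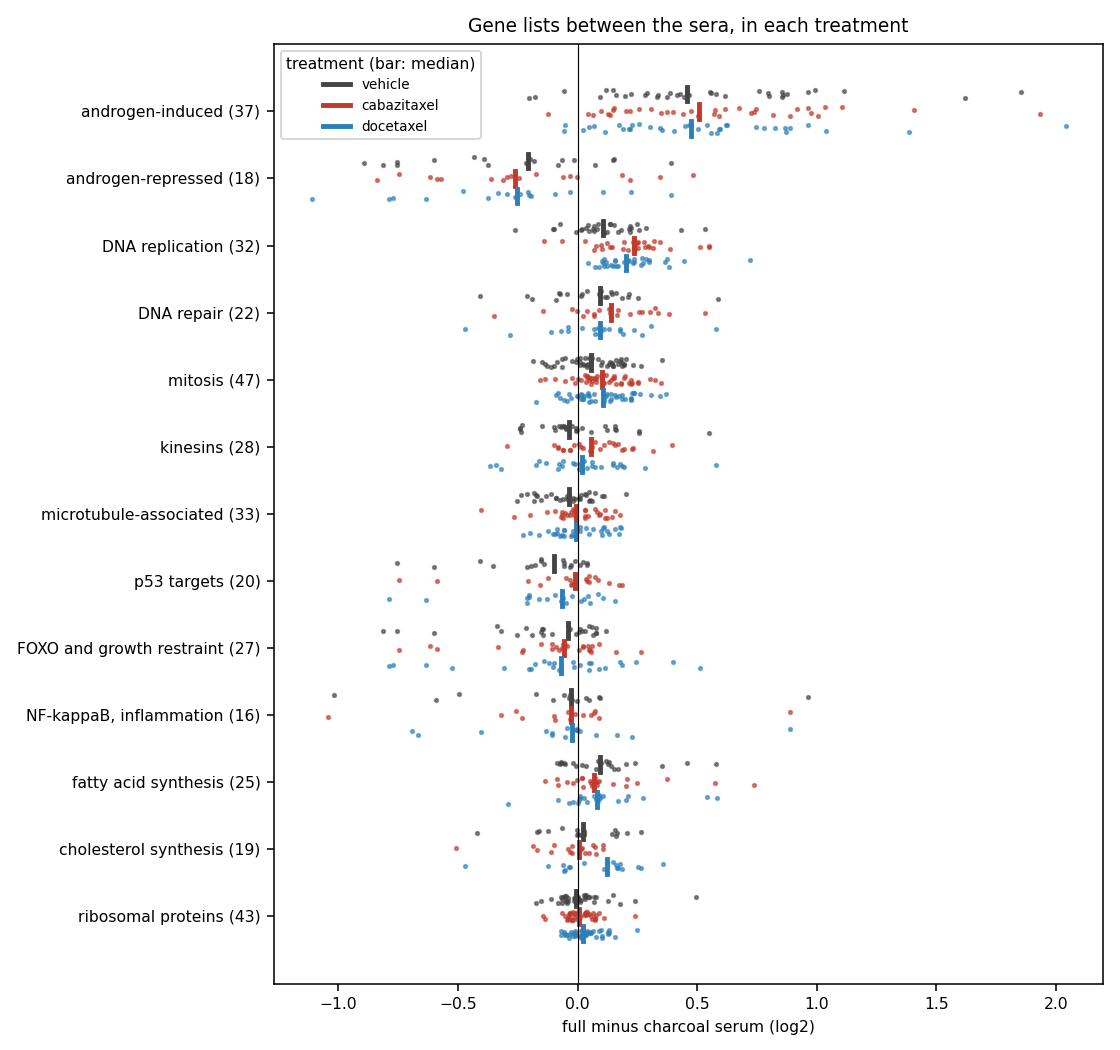
Full minus charcoal serum difference in log2 intensity (horizontal axis) of the tested members of 13 gene lists (vertical axis, number of genes in brackets) under vehicle (dark grey), cabazitaxel (red) and docetaxel (blue); points are genes and bars list medians. Under cabazitaxel the androgen-induced median is 0.51, the DNA replication median 0.24 and the ribosomal protein median 0.01.

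DNA replication genes, which supply the helicase, polymerase accessory factors and nucleotides of S phase, held no called member. Of 32 tested members 30 were higher in full serum under cabazitaxel, 24 without overlap, 16 had an unadjusted p under 0.05 and 0 passed the adjusted threshold; over all genes 3.63% were higher at that unadjusted p. Without the 2 members whose vehicle result was known when the list was written, 28 of 30 were higher. The median difference of the 32 was 0.24 under cabazitaxel, 0.11 under vehicle and 0.20 under docetaxel. DTL, which targets the licensing factor CDT1 for destruction, read 7.27 and 7.28 in charcoal serum and 7.75 and 7.83 in full serum (0.51, adjusted p = 0.149). CDC6, which loads the replicative helicase, read 6.91 and 7.16 in charcoal serum and 7.47 and 7.69 in full serum (0.55, adjusted p = 0.171). Its neighbours in the pathway gave 0.31 for the helicase subunit MCM4, 0.39 for MCM10, 0.25 for cyclin E2 (CCNE2), 0.24 for the sliding clamp PCNA, 0.30 for CLSPN and 0.55 for E2F8, all short of the threshold. As medians over the 32 genes of the deviation from each gene's 12-array mean, the charcoal-serum cabazitaxel arrays stood at -0.13 and -0.26, the full-serum cabazitaxel arrays at 0.04 and 0.01, the charcoal-serum vehicle arrays at 0.12 and 0.02, and the full-serum vehicle arrays at 0.22 and 0.15. The docetaxel arrays stood at -0.11 and -0.15 in charcoal serum and at 0.05 and 0.06 in full serum. In each serum the arrays of both taxanes lay below both vehicle arrays, and in charcoal serum those of cabazitaxel and docetaxel overlapped. DTL itself read 7.85 and 7.67 in charcoal serum with vehicle.

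The serum difference minus that under vehicle was above 0 for 26 of the 32 replication genes, with a median of 0.16, and passed for none of them. It was 0.33 for E2F8 (95% interval -0.15 to 0.81), 0.29 for DTL (-0.06 to 0.65) and 0.27 for CDC6 (-0.13 to 0.66). All 3 intervals hold 0 and also values as large as the serum difference under cabazitaxel itself. Against docetaxel the median was 0.02.

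**Figure D4:**
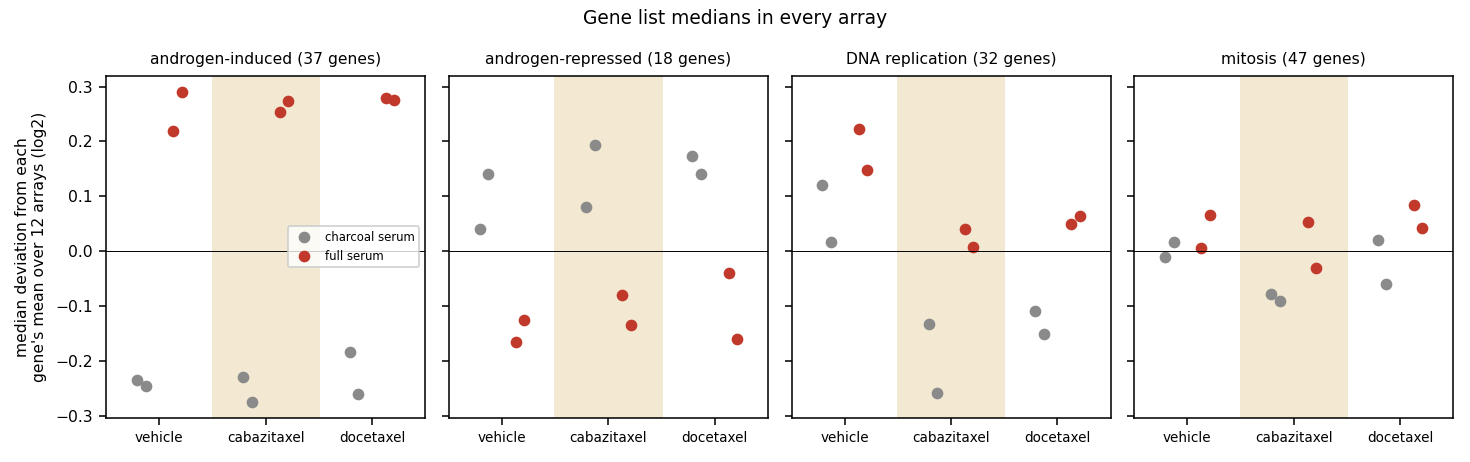
Median over the members of 4 gene lists of the deviation from each gene's mean over 12 arrays (vertical axis, log2), for every array by treatment (horizontal axis); grey points are charcoal-serum and red points full-serum arrays, and the cabazitaxel groups are shaded. For androgen-induced genes the shaded grey points are at -0.23 and -0.27 and the red at 0.25 and 0.27; for DNA replication genes they are at -0.13 and -0.26 and at 0.04 and 0.01.

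No member of the mitosis, kinesin, microtubule-associated or DNA repair lists was called. Of all tested genes 0.396% were called, a share at which lists of this size would mostly hold none. CENPN, which was called, had been placed in the androgen-induced list and not in these. Of 47 mitosis genes 41 were higher, 20 without overlap, and 0 were called, with medians of 0.10 under cabazitaxel, 0.05 under vehicle and 0.11 under docetaxel. TOP2A gave 0.25 and PLK1 0.23, neither past the threshold. Of 28 kinesin motor genes 19 were higher, 0 were called and the median was 0.06. KIF18B gave 0.31 and KIF22, which moves chromosomes, 0.40, against 0.55 for KIF22 under vehicle and 0.58 under docetaxel. Microtubule-associated protein genes were evenly split, 15 of 33 higher with a median of -0.01 and 0 called; MAP1B gave -0.41 (adjusted p = 0.645). Of 22 DNA repair genes 18 were higher, 0 were called and the median was 0.14. The homologous recombination helicase RAD54B read 6.15 and 6.02 in charcoal serum and 6.71 and 6.53 in full serum (0.53, adjusted p = 0.0926), while BARD1, the partner of BRCA1, gave -0.35 (adjusted p = 0.504).

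Of the stress and inflammatory lists, the p53, FOXO and NF-kappaB lists held called members, where 0.396% of all tested genes were called. SESN1 and TP53INP1 are members of both the p53 and the FOXO list. Of 20 p53 target genes 9 were higher and 11 lower, with SESN1 and TP53INP1 called and a median of -0.01. Of 27 FOXO and growth-restraint genes 16 were lower, with SESN1, SESN3 and TP53INP1 called. Of 16 NF-kappaB and inflammatory genes 10 were lower; CCL2 fell and MALT1 rose, and NFKB1 gave -0.32 (adjusted p = 0.359) against -0.59 under vehicle and -0.67 under docetaxel. All called members of these 3 lists had been listed with their vehicle result known. Of 17 interferon-response genes 13 were lower, with 0 called and a median of -0.08. Immediate early genes, which serum growth factors induce within minutes, were 10 higher and 16 lower with 0 called. Of 19 apoptosis regulators 13 were lower with 0 called.

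Metabolic lists were likewise centred near 0. Of 25 fatty acid synthesis genes 19 were higher and ELOVL5 and ELOVL7 were called, with a median of 0.07; ACACA, the first committed enzyme of the pathway, gave 0.37 (adjusted p = 0.335) and FASN 0.20 (adjusted p = 0.892). Of 19 cholesterol synthesis genes 10 were higher and 9 lower, INSIG2 fell and the median was 0.01. Of 19 genes of the unfolded protein and stress response 14 were higher with 0 called and a median of 0.06, against 0.17 under vehicle; MANF gave 0.31 (adjusted p = 0.146). Of 8 metallothionein genes 5 were higher with 0 called. Of 43 ribosomal protein genes 23 were higher with 0 called and a median of 0.01. Of 21 small nuclear and nucleolar RNA genes 12 were higher with 0 called and a median of 0.01, against 0.18 under vehicle. Of 4 steroid metabolism genes 2 were higher and 0 were called.

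The serum pair was measured on separate arrays under each treatment, so genes could be chosen in one and read in another. Full serum called 44 genes under vehicle (0.396%), 35 under docetaxel (0.315%) and 159 in the mean of both (1.43%), which rests on 8 arrays. Of the 44 genes called under cabazitaxel, 31 (70.5%) were also called under vehicle, which is 70.5% of that list, and 28 (63.6%) under docetaxel, 80.0% of that list. Called under all 3 treatments were 26 genes, 16 higher and 10 lower, among them TARP, KLK2, HERC3, ZBTB10, STK39, SNAI2, CENPN, MALT1, CCL2, TLL1, SESN1, SESN3 and TP53INP1. KLK3 missed the threshold under docetaxel, with a difference of 0.83 (adjusted p = 0.108). All but FOXD4 and NIPAL3 of the 44, that is 42 (95.5%), were among the 159. Over all 11105 genes the cabazitaxel difference correlated with that of vehicle at r = 0.409 and with that of docetaxel at r = 0.375 across genes, which share array design and are not independent.

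Read in the cabazitaxel arrays, 153 of the 159 genes moved the same way. For 143 (89.9%) the sera did not overlap in that direction, against 34.9% in either direction over all genes. The spread behind the choice included the cabazitaxel duplicates, so this share is not independent of the choice. The 67 genes higher in full serum had a median difference of 0.46 in the mean of vehicle and docetaxel and 0.50 under cabazitaxel, and 34 of them were smaller under cabazitaxel. The 92 lower genes had medians of -0.39 and -0.28, and 81 were smaller in size under cabazitaxel, but these genes were chosen on the vehicle and docetaxel arrays, so the sizes are not on an equal footing. Genes chosen under 1 treatment were therefore read in the other 2. The serum differences of those 2 did not enter the choice, but their duplicates entered the spread behind it. The gaps between the medians were not tested. The 17 genes called lower under docetaxel had medians of -0.59 under vehicle and -0.52 under cabazitaxel, and the 18 called higher 0.75 and 0.84. The 19 genes called lower under vehicle had medians of -0.56 under docetaxel and -0.49 under cabazitaxel, and the 25 called higher 0.62 and 0.73. The named genes of the 159 that read the other way under cabazitaxel included ZNF737 (0.06 against -0.35), RGL1 (0.04 against -0.35) and NWD1 (0.07 against -0.25), all close to 0 under cabazitaxel; ZNF737 and RGL1 changed sign there when single arrays were left out.

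**Figure D5:**
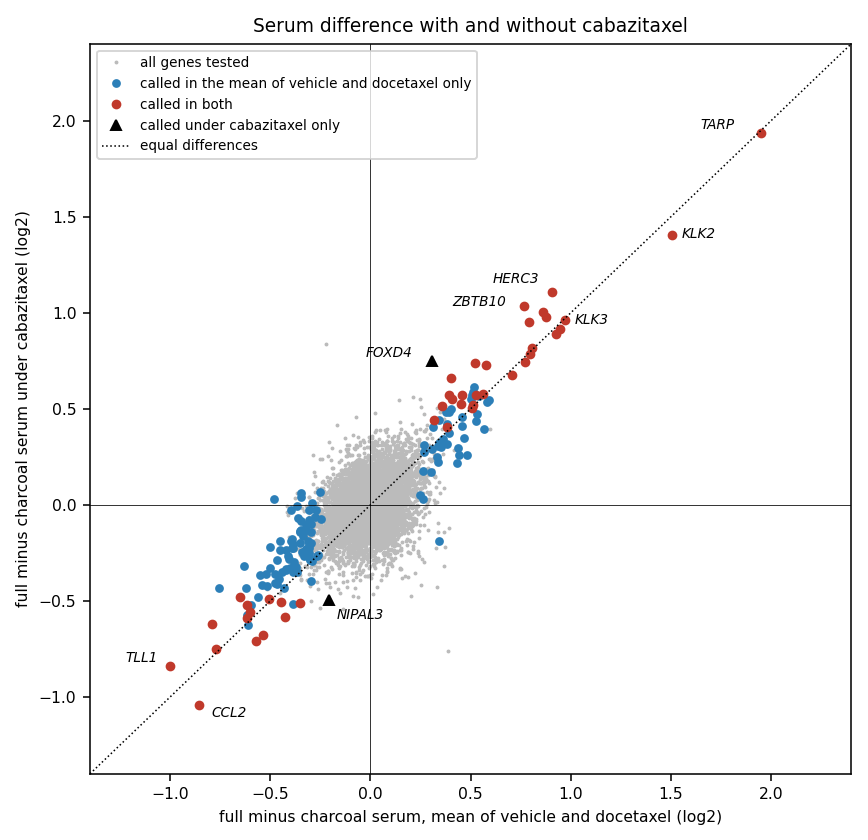
Full minus charcoal serum difference in log2 intensity under cabazitaxel (vertical axis) against the mean of vehicle and docetaxel (horizontal axis) for 11105 genes; red points were called in both, blue points in the mean of vehicle and docetaxel, black triangles under cabazitaxel, grey points in neither, and the dotted line marks equal differences. The 42 red points follow the dotted line from CCL2 and TLL1 to TARP, and the 2 black triangles are FOXD4 and NIPAL3.

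Whether the serum difference itself depended on cabazitaxel was tested as an interaction. It was called for 0 genes against vehicle (0%), 0 against docetaxel (0%) and 0 against the mean of both (0%) by limma, with 380, 402 and 413 genes at an unadjusted p under 0.05 where 555 would be expected. The smallest adjusted p was 0.999. For TARP the difference under cabazitaxel minus that under vehicle was 0.08 (95% interval -0.24 to 0.39), for KLK2 -0.21 (-0.71 to 0.28), for KLK3 -0.15 (-0.70 to 0.40) and for CCL2 -0.02 (-0.38 to 0.34). For FKBP5 it was 0.29 (-0.03 to 0.61), so that its call under cabazitaxel and its vehicle difference of 0.28 do not show a dependence on the drug. Over the 44 called genes the interval against vehicle held 0 for 43, with a median half-width of 0.30. Of these 44, 29 were larger under cabazitaxel than under vehicle, but they were chosen on the cabazitaxel arrays and nothing is read from that count.

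No gene named below passed the adjusted threshold for an interaction. The first 4 were called between the sera under cabazitaxel, and the others had the smallest unadjusted p-values for an interaction among the genes the naming rule allows. ZBTB10 had an interval without 0 against vehicle (0.27, 0.04 to 0.51), and its charcoal-serum arrays read 6.50 and 6.64 with vehicle against 6.38 and 6.45 with cabazitaxel. FOXD4 differed by 0.75 between the sera under cabazitaxel, 0.40 under vehicle and 0.22 under docetaxel. NIPAL3, related to magnesium transporters, gave -0.50, -0.44 and 0.03. With all clusters of the gene averaged, its difference under cabazitaxel was -0.26 and was not called. CNKSR2, a scaffold of Ras signalling, gave 0.66, 0.60 and 0.20. The zinc-finger gene ZNF701 read 4.79 and 4.59 in charcoal serum and 5.06 and 5.24 in full serum under cabazitaxel, with differences of 0.46 under cabazitaxel and -0.21 under vehicle (interaction 0.67, unadjusted p = 0.000382). BIK, a BH3-only inducer of apoptosis, read 6.18 and 5.92 in charcoal serum with cabazitaxel and between 5.57 and 5.73 on the other 10 arrays, giving -0.36 under cabazitaxel against 0.10 under vehicle and 0.02 under docetaxel (interaction against the mean of both -0.42, unadjusted p = 0.00229). The others against vehicle were CENPV (0.65), EIF5A2 (0.51), ADAMTSL4 (-0.50), CCDC87 (-0.49) and RUFY2 (-0.44), and against docetaxel CCL21 (0.66), TRAPPC11 (0.40), PML (-0.47) and GALNT2 (-0.47). Against the mean of both they included OGFOD3 (0.38), NEK8 (0.35) and WDR70 (-0.46).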

How the data were processed

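RNA of LNCaP cultures in 6 groups of 2 arrays was measured on the Affymetrix Human Gene 2.0 ST array. The authors deposited linear intensity values, RMA-normalized per the submitters' processing notes, with no version stated; the floor and any filter are not given in the sources used here. Of 44629 transcript clusters, 15835 carried 1 gene symbol and 28794 none. All 15835 matched RefSeq by gene ID. Values were turned to log2, 1 cluster was kept per symbol (the highest mean over the 12 arrays), and of 14812 genes the 11105 that exceeded the overall median intensity (22.3) on 2 or more arrays entered the tests in R 4.3.3 with limma 3.58.1 (lmFit and eBayes, 1 mean per group over all 12 arrays, 6 residual and 5.08 prior degrees of freedom), two-sided, with Benjamini-Hochberg adjustment over all 11105 genes and calls at 0.05. Log2 differences of the deposited intensity are differences of group means. The number of arrays limits the precision, and an exact permutation test of 2 arrays against 2 cannot give a p below 0.333. The fitting script was tested on simulated data.

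The members and lists were chosen with earlier results of these data known. Named were the 15 largest rises and the 15 largest falls among called genes without overlap between the sera, up to 5 members with the smallest p and every called member of each of 26 lists, the 3 smallest-p genes per direction of each interaction where none was called, the 3 genes of the mean of vehicle and docetaxel that were largest and the 3 that were smallest under cabazitaxel, and TARP, KLK2 and KLK3; DPP4, KLK4, FN1, SLFN5 and a few list members outside this rule were chosen after their values were seen. Alternatives were other filters, an offset, median centring, averaging clusters, an intensity trend, the 4 arrays alone, a replicate block, leaving out each array and the methods' t-test.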

Additional observations from a re-analysis of the deposited data

Results flagged for a closer look

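Transcript clusters without a gene name in the annotation were outside the comparison by gene. All 25724 clusters that passed the same filter were tested together, and 52 of them were called between the sera under cabazitaxel. Of the 13812 clusters without a name 28 were called, 23 higher and 5 lower in full serum, a share near that over all clusters. In the mean of vehicle and docetaxel, 27 of the 28 were also called in the same direction. The largest, cluster 17056823, read 4.54 and 4.59 in charcoal serum and 6.69 and 6.87 in full serum, a difference of 2.22. Cluster 17056813 had nearly the same value on each of these arrays, so the 28 clusters are not all separate transcripts. The largest fall was cluster 16746287, at 6.79 and 6.53 in charcoal serum and 5.40 and 5.68 in full serum, a difference of -1.12. These clusters are the array's own identifiers and are not named here.

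A dependence of the serum difference on the drug passed the threshold for 1 cluster, 16681891, also without a name. Its serum difference was -0.55 under cabazitaxel, 0.14 under vehicle and 0.55 under docetaxel, so that the cabazitaxel value minus the mean of the other two was -0.90 (SE 0.0875, adjusted p = 0.0372 by limma over all clusters). Tested against docetaxel alone the adjusted p was 0.0216, and against vehicle alone 0.998. Its 2 charcoal-serum arrays read 6.13 and 6.10 with cabazitaxel, 5.52 and 5.60 with vehicle and 5.06 and 5.20 with docetaxel, while the 6 full-serum arrays lay between 5.55 and 5.73. Groups of 2 arrays are too small for a check of single outlying arrays.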

How the results depend on the processing

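The 44 calls under cabazitaxel came to 25 with no filter on low values, 10 with 16 subtracted from every intensity, 7 with the 4 cabazitaxel arrays alone and 2 by the methods' t-test after Benjamini-Hochberg adjustment (618 at an unadjusted p under 0.05, including 39 of the 44, and 0 of the 44 after adjustment). Leaving out 1 array gave 9 to 19. TARP, HERC3, ZBTB10, STK39, SNAI2 and CENPN were called under all 12 alternatives read gene by gene. Replicate numbers are shared between groups, and nothing in the labels says that a number marks a shared culture or day. The correlation of deviations was over 0.1 in 10 of 15 group pairs (from -0.0486 to 0.326), short of every pair, so the arrays were not treated as paired, and a shared replicate effect in some groups is not excluded. With the replicate block 47 genes were called under cabazitaxel, 70 in place of 44 under vehicle, 62 in place of 35 under docetaxel and 230 in place of 159 in their mean.

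With no filter docetaxel gave 22. With the offset vehicle gave 16, docetaxel 9 and their mean 71. Leaving out 1 array gave 7 to 43 under vehicle, 7 to 21 under docetaxel and 77 to 132 in their mean. The serum difference of ZNF737 under cabazitaxel ran from -0.059 to 0.19, that of RGL1 from -0.067 to 0.15 and that of HOXB13 from -0.17 to 0.0055 when 1 array was left out, on both sides of 0. The interactions gave 0 calls by gene under each alternative. Testing all clusters, and reading lists without genes whose vehicle result was known, were chosen after seeing the data. Low signal over the floor limits what dim genes can show.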
